A study of Mus musculus with 6 samples.

Results

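Messenger RNA of 7 genes, Bnc2, Slc35d3, Fam184b, A930009L07Rik, Micalcl, Avpr1a and Aff2, was followed in sorted cells of the mouse ventral midbrain at embryonic day 12.5, the stage at which dopaminergic neurons are born there. The genes were picked because their signal was much higher in 1 of the sorted populations and because they are less studied in dopaminergic cells than Th or Nr4a2. Every probe set whose listed symbol is exactly one of these names was taken, which gave 14 of 45037 probe sets and 7 of 18193 named genes on the array. Since the same contrast chose them, their difference between the populations is a description and carries no test. No numeric limit was set in choosing them.

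There were 2 groups of 3 arrays. The first, called positive here, held GFP-positive cells sorted by flow cytometry from Ngn2-GFP embryos of CD1/129 strain, whose GFP stands for expression of Neurog2, a proneural gene. The second, called negative here, held GFP-negative cells from Lmx1a-GFP embryos of C57BL/6 strain, in which GFP reports a transcription factor of dopaminergic progenitors. Per the series' design text, the positive cells include nearly all midbrain dopaminergic progenitors and the negative cells are a non-dopaminergic reference, with 3 biological replicates of each. Reporter line, strain and sort gate differed together between the groups on every array, so their contributions cannot be told apart. A sort on a reporter enriches a mixed population, and in such bulk samples fewer cells of a type and less RNA per cell cannot be told apart either.

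Little unites the 7 genes by function. Bnc2 encodes basonuclin 2, a zinc finger protein that in mice is needed for craniofacial development. Slc35d3 belongs to the nucleotide sugar transporter family, and in mice its loss impairs platelet dense granules and the trafficking of the dopamine receptor Drd1 in the striatum. Avpr1a is a vasopressin receptor that signals through Gq proteins and phospholipase C. Aff2, also called Fmr2, is an X-linked member of the AFF family of transcription elongation scaffolds, and its silencing in people causes FRAXE intellectual disability. Micalcl resembles the C-terminal part of the MICAL proteins, which act on actin and on Rab GTPases, and Fam184b encodes a coiled-coil protein of little known function. A930009L07Rik is a clone name, which the gene table used here lists as an alternative name of Kcnk9, a potassium leak channel. The Entrez ID that the platform gives for it differs from that of Kcnk9, so the A930009L07Rik probe sets are not called Kcnk9 below.

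The loci listed for the 7 genes lie on 6 chromosomes of GRCm38.p6, with that of A930009L07Rik found by alternative name only. Bnc2 spans chr4:84266804-84676029, Fam184b chr5:45529705-45639501, Micalcl chr7:112368308-112413104 and Aff2 chrX:69360190-69872054. Slc35d3 (chr10:19847917-19856634) and Avpr1a (chr10:122448499-122453453) share chromosome 10 but are far apart. The locus that carries A930009L07Rik as an alternative name is chr15:72501873-72548614.

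Promoters of the 7 genes are described next, and whether any factor acts on them was not tested. Among factors that bind the motifs searched, Lmx1a, Lmx1b, Nr4a2, Foxa2 and Neurog2 had more signal on each positive array than on any negative array. The same held for 8.21% of all tested genes. The differences of Foxa2 and Neurog2 did not pass the test given further on, and no individual test result is given for Lmx1a, Lmx1b or Nr4a2. RefSeq promoter windows of GRCm38.p6, each with 250 bases before and 50 after an annotated start, were found for 6 of the 7 genes, 7 windows in all because Micalcl has 2 starts. The windows of Bnc2 and Slc35d3 and the second window of Micalcl lie inside the gene's outermost span, at an internal start, and that of Aff2 overlaps its edge. Both strands were searched for TAATTA, a homeodomain core bound by Lmx1 factors among many others, for the forkhead motifs TGTTTAC and TATTTAC, for AGGTCA, the core recognised by nuclear receptors such as Nr4a2, and for the E-boxes CAGCTG and CATCTG. The homeodomain core was present in 2 of the 7 windows, one of Bnc2 and one of Micalcl, against 5.29% of 32851 windows in the table. With 7 windows this count is too small to read as an enrichment. Whether these starts are used in the sorted cells was not measured. For these 2 windows, the 250 bases before the start are given 5′ to 3′ on the gene's strand, with the core in capitals. The Bnc2 stretch is chr4:84610198-84610447 on the minus strand and the Micalcl stretch chr7:112368058-112368307 on the plus strand.
Bnc2: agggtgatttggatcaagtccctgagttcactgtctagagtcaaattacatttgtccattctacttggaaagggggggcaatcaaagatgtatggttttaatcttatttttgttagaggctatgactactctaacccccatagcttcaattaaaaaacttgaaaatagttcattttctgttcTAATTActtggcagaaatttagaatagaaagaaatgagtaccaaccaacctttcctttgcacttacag
Micalcl: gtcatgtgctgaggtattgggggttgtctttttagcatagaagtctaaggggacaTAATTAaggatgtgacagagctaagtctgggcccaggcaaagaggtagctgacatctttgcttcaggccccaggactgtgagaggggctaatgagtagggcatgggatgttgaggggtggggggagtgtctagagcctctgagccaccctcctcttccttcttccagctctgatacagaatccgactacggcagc

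The remaining matches are given with 12 bases on each side and the match in capitals. An E-box stood in the windows of Fam184b (chromosome 5) and Aff2 (chromosome X), against 30.6% of all windows. The nuclear receptor core was found at 2 places in the second Micalcl window (chromosome 7), on the reverse strand, against 16.3% of all windows.
Fam184b: cggaagcatccgCAGATGgtaaacctcacg
Aff2: aactgcccccatCAGCTGattttgacaggg
Micalcl, first match: gagccgggcctcTGACCTaggactcttatt
Micalcl, second match: cttattatattaTGACCTcactatggtgaa
The forkhead motifs were in 0 of the 7 windows, against 6.54% of all. The windows of Slc35d3 and Avpr1a held none of the motifs searched. The windows differed in base composition, with 36.3% G and C in Bnc2 and 67.7% in Slc35d3, against a median of 52.7% over all windows. A match is a stretch of letters and not a measured binding site.

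All 7 genes stood higher on each positive array than on any negative array at their brightest tested probe set, as did 8.21% of all tested genes, a share from which nothing is read since the choice of the 7 used it. Values are MAS5 signals, the authors' summary of the probes of a probe set on a linear scale, and group averages are given as mean ± SD of 3 arrays. Differences are means of log2 signal, positive minus negative. A signal is compared with the 40th percentile of its own array, which lay between 10.2 and 15.8, and the signal of a group is called low when it is not above that level on any of the group's 3 arrays. Signals of different probe sets are not on a common scale, so the genes are not ranked by level.

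Bnc2 had signals of 425, 312 and 230 in positive cells, against 43.0, 14.8 and 10.5 in negative cells. The averages were 322 ± 98.0 and 22.8 ± 17.7 (SD, n = 3 each), a log2 difference of 4.05. Negative replicate 1 was the highest negative array, and without it the difference was 4.65. The other 2 negative values lay close to the 40th percentile. The lowest positive value was 5.34 times the highest negative one. Bnc2 was also the gene with the widest spread among positive arrays, a log2 SD of 0.44, where 846 genes of like signal in positive cells had a median SD of 0.22.

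Slc35d3 had signals of 52.7, 59.1 and 48.3 in positive cells, against 4.71, 0.426 and 1.42 in negative cells. Its negative signal was low on all 3 arrays, so only a bound can be given, at least 4.10-fold higher in positive cells. The positive arrays lay close together, with a log2 SD of 0.15. Among all 12044 tested genes, Slc35d3 and Bnc2 were each other's nearest over the 6 arrays by the measure described further on, though other pairs were closer.

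Fam184b had signals of 88.5, 94.4 and 102 in positive cells, against 26.0, 7.82 and 13.2 in negative cells, averages of 95.0 ± 6.74 and 15.7 ± 9.31 (SD, n = 3 each). The log2 difference was 2.77. Its positive values were the tightest of the 7 genes, with a log2 SD of 0.10, while its negative values spread over 3.32-fold.

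A930009L07Rik had signals of 976, 1058 and 1462 in positive cells, against 115, 320 and 127 in negative cells. The averages were 1166 ± 260 and 187 ± 115 (SD, n = 3 each), a log2 difference of 2.78. Negative replicate 2 was the highest negative array, and the lowest positive array still had 3.05 times its signal. The gene was above the 40th percentile on all 6 arrays.

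Micalcl had signals of 43.8, 53.5 and 53.2 in positive cells, against 3.02, 14.8 and 5.84 in negative cells, averages of 50.2 ± 5.55 and 7.88 ± 6.14 (SD, n = 3 each). The log2 difference was 2.97. Negative replicate 2 was again the highest of its group and the 1 negative array above the 40th percentile, so the size of the difference leaned on that array. Without it the negative signal was low throughout and the difference became a bound of 1.97 on the log2 scale.

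Avpr1a had signals of 67.0, 47.8 and 60.6 in positive cells, against 10.5, 12.2 and 10.4 in negative cells, averages of 58.5 ± 9.80 and 11.0 ± 1.02 (SD, n = 3 each). The log2 difference was 2.40. The negative values lay near the 40th percentile, and only negative replicate 3 exceeded it. Without that array the difference was a bound of 1.99 on the log2 scale.

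Aff2 had signals of 164, 211 and 163 in positive cells, against 77.3, 66.9 and 56.5 in negative cells. The averages were 179 ± 27.5 and 66.9 ± 10.4 (SD, n = 3 each), a log2 difference of 1.42. Of the 7 genes it had the smallest difference, and its negative signal was well above the 40th percentile on all 3 arrays, so both groups were measured.

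**Figure D1:**
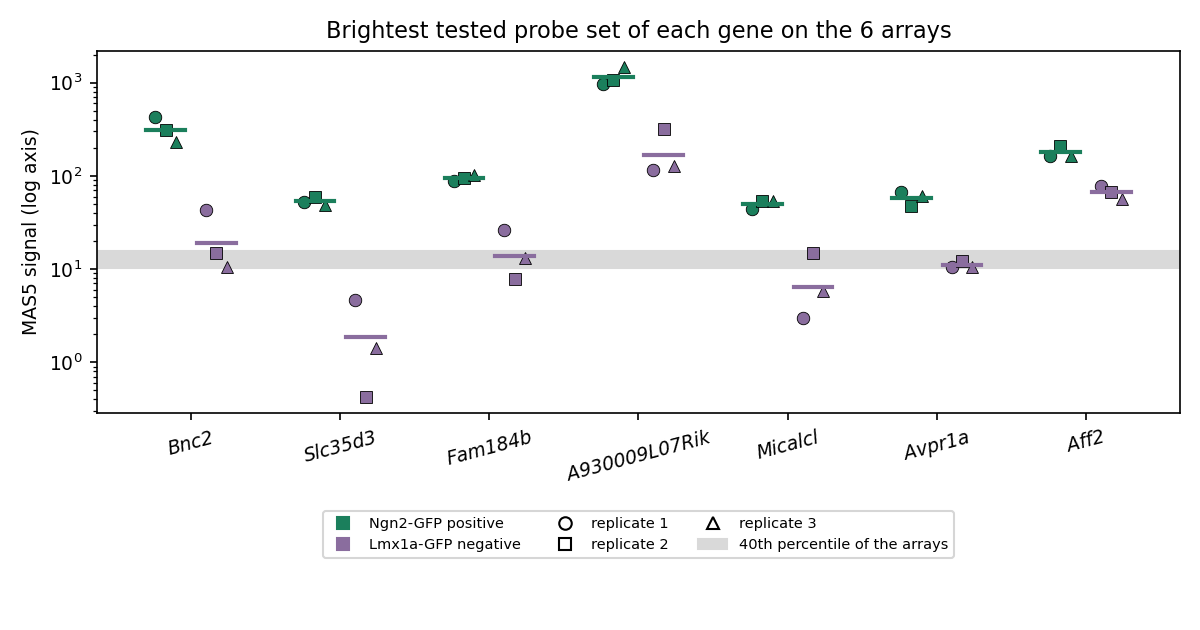
MAS5 signal (log axis) of the brightest tested probe set of each of the 7 genes, with 1 point per array (positive cells left, negative cells right), bars at the geometric mean after a floor of 1 and a grey band over the 40th percentiles of the arrays. Each positive point lies above all negative points of its gene, and the negative points of Slc35d3 lie below the band.

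The other probe sets of the same genes gave a mixed picture. Of the 14 probe sets, 12 had positive values all above the negative ones, where 6.34% of all probe sets do. Since the genes were picked on this contrast, nothing is read from that count. The 2 A930009L07Rik probe sets differed by 2.78 and 2.83, although the arrays fell in another order within the groups. The dimmer one had signals of 219, 234 and 206 in positive cells, against 49.8, 32.5 and 18.1 in negative cells. The array with the highest negative value was replicate 2 at one probe set and replicate 1 at the other.

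For Bnc2 the second probe set had signals of 31.4, 25.2 and 35.0 in positive cells, against 12.3, 10.3 and 0.135 in negative cells. Its negative signal was low on all 3 arrays, and the bound was at least 2.33-fold. The third, and the second Avpr1a probe set, pointed the same way at signals mostly under the 40th percentile and stayed under the filter for tested probe sets. That filter, which asks for a signal above the 40th percentile on at least 3 arrays, was passed by 11 of the 14 probe sets.

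Fam184b was the gene whose probe sets differed most. Its second probe set had signals of 48.1, 26.8 and 23.9 in positive cells, against 19.1, 23.8 and 22.0 in negative cells. The groups did not overlap, but the lowest positive value was only 1.01 times the highest negative one and the log2 difference was 0.54. The third Fam184b probe set overlapped between groups, with 3.40 to 13.3 in positive cells and 3.95 to 11.5 in negative cells. The second Aff2 probe set also overlapped, with 48.1, 11.0 and 16.0 in positive cells and 10.1, 31.4 and 9.83 in negative cells. The excess of Fam184b and Aff2 thus rests on 1 probe set each, and that of Slc35d3 and Micalcl on the 1 probe set they have.

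**Figure D2:**
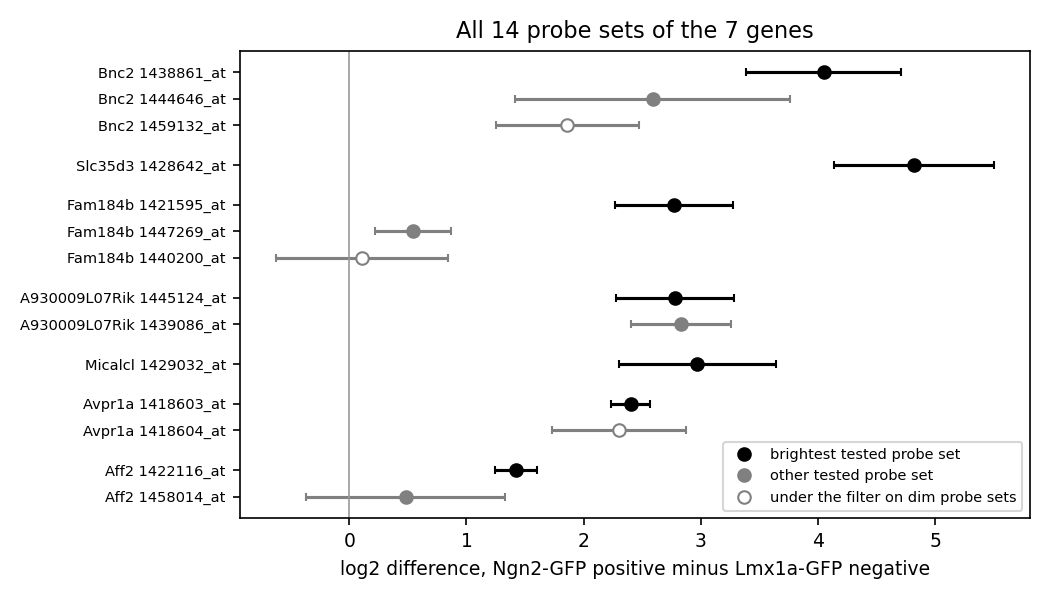
Log2 difference, positive minus negative, of all 14 probe sets (horizontal axis), grouped by gene, with bars of 1 standard error from the 2 group SDs (n = 3 each). A930009L07Rik has 2 probe sets near 2.8, whereas the other Fam184b and Aff2 probe sets lie between 0.11 and 0.54; differences with a low negative group, such as that of Slc35d3, are drawn as fitted after a floor of 1 and are not measured sizes.

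The arrays showed a technical split that touches these values. Hybridization spike-in controls averaged 2293 and 2352 on positive replicates 1 and 2, against 4254 to 6560 on the other 4 arrays. Positive replicate 3 alone stood 3.61 above the negative mean on the log2 scale for Bnc2, 3.13 for A930009L07Rik, 3.06 for Micalcl, 2.88 for Fam184b, 2.47 for Avpr1a and 1.29 for Aff2, with the negative level of Slc35d3 too low for such a value. For Bnc2 this was lower than replicates 1 and 2 by 0.66 and for A930009L07Rik higher by 0.52, while the other genes moved by 0.21 or less. Markers of other cells also moved with the groups. The summed signal of 5 red blood cell genes was 294 to 611 in positive and 7375 to 14435 in negative cells, that of 6 macrophage genes was 46.4 to 59.9 and 163 to 521, and that of 5 GABAergic genes was 1680 to 1864 and 4538 to 4789. Most of the red blood cell sum came from Hbb-y, at 273 to 574 and 6565 to 12429. Hba-x, Hbb-bh1 and Alas2 were also lower on every positive array than on any negative array. Hba-a1 was under the 40th percentile on all 6 arrays. Of the 6 macrophage genes, Csf1r, Aif1, Cx3cr1 and Ptprc were low on all 3 positive arrays, whereas Fcgr3 and Cd68 exceeded the 40th percentile on all 6 arrays and overlapped between the groups. Summed signals of 6 endothelial and pericyte genes (72.6 to 85.4 and 45.1 to 87.3) and of 5 mesenchymal genes (50.1 to 81.0 and 52.8 to 73.5) overlapped. Of the endothelial and pericyte genes, Cldn5, Cdh5, Pdgfrb and Rgs5 overlapped singly too. Kdr did not, at 11.8, 24.2 and 27.1 in positive cells, against 7.96, 0.338 and 6.60 in negative cells, and it was under the filter. Pecam1 was also higher on each positive array, but under the 40th percentile on all 6 arrays. The part of these other cells in the values of the 7 genes was not tested.

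Of 12 dopaminergic genes looked up to check the labels, 11 exceeded the 40th percentile on at least 1 positive array and 8 on at least 1 negative array. By limma 6 of the 11 tested were higher in positive cells and 1 was lower. Otx2, which specifies forebrain and midbrain identity, was the gene that fell. It averaged 259 ± 24.0 in positive cells and 542 ± 62.4 in negative cells (SD, n = 3 each), and its log2 difference was -1.06 (SE 0.20, limma adjusted p = 0.0210). Foxa2, a floor plate transcription factor, differed by 0.33 (SE 0.21, limma adjusted p = 0.597). Pitx3, a dopaminergic transcription factor, stayed under the 40th percentile throughout. The signal of the 12 summed to 4699 to 6097 in positive cells and 2288 to 2698 in negative cells, and Nr4a2 gave the largest part of it in both groups.

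Neurog2, whose reporter defined the positive sort, was itself above the 40th percentile on all 6 arrays. It had 706, 585 and 500 in positive cells, against 338, 388 and 334 in negative cells. The groups did not overlap, and the difference of 0.75 (SE 0.21) did not pass (limma adjusted p = 0.155).

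The dopaminergic genes above the 40th percentile on at least 1 array of each group ranged in log2 difference from -1.06 for Otx2 to 4.89 for Th. Th exceeded that level on only 1 negative array, so its difference rests on negative values near background and its size is uncertain. Ddc, the decarboxylase of dopamine synthesis, at 0.87, and the transcription factor Lmx1b, at 1.05, lay below the smallest difference of the 7 genes, which were chosen for a large one. Th had signals of 188, 214 and 118 in positive cells, against 12.2, 1.44 and 10.5 in negative cells. Nr4a2, the nuclear receptor Nurr1, averaged 2258 ± 797 and 653 ± 250 (SD, n = 3 each), and Slc18a2, the vesicular monoamine transporter, 416 ± 99.2 and 186 ± 35.5. The log2 differences of Nr4a2 and Slc18a2, 1.80 and 1.15, lay on either side of that of Aff2. Among positive arrays, Th and Bnc2 were lowest on replicate 3, whereas Nr4a2, Slc6a3, the dopamine transporter, and A930009L07Rik were highest there.

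Patterns over the 6 arrays were compared by the root mean square difference of log2 signals, each gene centred on its own mean, over 12044 tested genes. Because the group difference dominates this measure, the genes found are mostly ones with an excess of like size, and no p is attached. Slc35d3 was the gene most like Bnc2 and Bnc2 the gene most like Slc35d3, at a difference of 0.54. Micalcl and A930009L07Rik were likewise each other's nearest, at 0.32. After its partner, each of Bnc2 and Slc35d3 had Rspo2, a secreted activator of Wnt signalling, among its 3 nearest genes, and Th was second nearest to Slc35d3 at 0.71. Corin, a protease of floor plate progenitors, was also among the 3 nearest to Micalcl, at 0.44. Rspo2, Corin and Slc35d3 itself had low negative signals, so part of these patterns lies in values near background.

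The closest likeness was that of Avpr1a and Ret, the signalling receptor of glial cell line-derived neurotrophic factor, at 0.16, and of Aff2 and En1, a homeodomain transcription factor of the midbrain, at 0.15. Avpr1a was followed by C130021I20Rik at 0.19 and by Cps1, the mitochondrial carbamoyl phosphate synthase, at 0.20. Aff2 was followed by Elmo1 and Samd5, both at 0.19. The negative signals of Ret and Cps1 were low, while those of C130021I20Rik, En1, Elmo1 and Samd5 were above the 40th percentile on all 3 arrays. Fam184b was nearest to Fam149a (0.33), Sv2b, a synaptic vesicle protein gene (0.37), and Fam222a (0.39). By Pearson correlation over the same 6 arrays the order changed for most genes: Ret, Cps1 and C130021I20Rik were again the first 3 for Avpr1a, while Slc35d3 ranked 10 for Bnc2 and En1 ranked 17 for Aff2.

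Relatives and partners of the 7 genes were examined next, since the choice of the 7 did not use them. In 7 lists of paralogs, complexes and pathway partners, 103 genes were sought. Of these, 79 were tested, 17 had a listed probe set under the filter and 7 had none listed under their symbol alone. The test was limma's, its p-values adjusted by the Benjamini-Hochberg method across the 12044 genes, with a limit of 0.05. It called 0 of the 79 higher and 0 lower in positive cells, where 0.423% and 0.639% of all tested genes were called (51 and 77 genes). At an unadjusted p under 0.05 there were 7 of 79 list genes, where 10.8% of all tested genes pass. The median log2 difference of the 79 was 0.13, against 0.03 over all tested genes. Positive differences were found for 49 of the 79, against 52.3% of all tested genes.

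The closest relatives did not share the excess at a size that passed the test. In simulated arrays the test called 18.8% of 2-fold and 65.2% of 4-fold changes. A relative without a call is thus not shown to be unchanged. Bnc1, the other basonuclin, was under the 40th percentile on all 6 arrays. Fam184a averaged a log2 difference of 0.46 (SE 0.29, adjusted p = 0.583 by limma), at 137, 101 and 79.0 in positive cells, against 78.4, 68.6 and 78.9 in negative cells. Among 22 tested SLC35 transporters the median difference was -0.07. The 2 brightest of them, Slc35a2 and Slc35e3, differed by -0.06 (SE 0.20) and 0.02 (SE 0.22). Slc35d1 differed by 1.06 (SE 0.54, limma adjusted p = 0.498) and Slc35d2 by -0.33 (SE 0.48, limma adjusted p = 0.830). The widest difference of that list, singled out after its values were seen, was that of Slc35e4, with 61.6, 39.9 and 30.2 in positive cells, against 3.91, 23.9 and 8.69 in negative cells. Its groups did not overlap, but the difference of 2.17 (SE 0.66) did not pass (limma adjusted p = 0.221).

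Genes tied to the mouse phenotypes of Slc35d3 were measured in both populations. Of 16 tested genes of dense granules and lysosome-related organelles, 12 had positive differences, against 52.3% of all tested genes. The range was -0.25 to 0.56 and the median 0.18. Snapin and Ap3s1, which encode a BLOC-1 and an AP-3 subunit, differed by -0.15 (SE 0.20) and 0.11 (SE 0.19). Drd1, the receptor whose trafficking depends on Slc35d3 in the striatum, gave 4.06, 15.6 and 11.4 in positive cells, against 18.9, 12.6 and 6.20 in negative cells, and was not above the filter. Drd2 was under the 40th percentile on all 6 arrays. Of 6 tested dopamine receptor and autophagy genes, the range was -0.78 to 0.38, with Becn1, an autophagy scaffold, at -0.12 (SE 0.19) and Pik3r4, a subunit of its lipid kinase complex, at -0.78 (SE 0.33, limma adjusted p = 0.406).

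Avpr1a was the 1 receptor of its family with a tested probe set. Avpr1b and Oxtr, the oxytocin receptor, were under the 40th percentile on all 6 arrays, and Avpr2 exceeded it on 1 positive array. Avp, which encodes vasopressin itself, had 21.0, 12.4 and 2.76 in positive cells, against 10.4, 10.4 and 15.2 in negative cells, and was not tested. Over the 9 tested genes of this list the median difference was 0.28. Downstream of the receptor, Gnaq differed by -0.09 (SE 0.22) and the phospholipase Plcb4 by 0.71 (SE 0.24, limma adjusted p = 0.281). The kinase Prkca, which had the highest difference of the list, differed by 0.95 (SE 0.30, limma adjusted p = 0.242). Neither Plcb4 nor Prkca overlapped between the groups, with Prkca at 144, 138 and 83.0 in positive cells and 68.5, 51.4 and 64.8 in negative cells.

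None of the AFF relatives passed the test. Aff1 was below its negative level on every positive array, with 27.8, 14.2 and 24.0 in positive cells, against 33.8, 62.2 and 63.1 in negative cells, a difference of -1.27 (SE 0.44) that did not pass (limma adjusted p = 0.304). Aff3 differed by 0.26 (SE 0.22) and Aff4, a scaffold of the super elongation complex, by -0.30 (SE 0.23). Over the 14 tested genes of this list the median was 0.13, with Ccnt2, a cyclin of the elongation kinase, at -0.04 (SE 0.21). Fmr1, the fragile X gene, differed by 0.49 (SE 0.26, limma adjusted p = 0.516).

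In the MICAL list of 11 tested genes the differences ranged from -0.42 to 0.55. Mical1 differed by -0.42 (SE 0.29), Mical3 by 0.13 (SE 0.35), Micall1 by 0.18 (SE 0.20) and Micall2 by 0.22 (SE 0.44). Ehbp1 and the semaphorin co-receptor Plxna1 differed by -0.20 (SE 0.20) and 0.19 (SE 0.27). Mical2, the next protein-coding gene before Micalcl on chromosome 7, had 1.61, 7.61 and 15.2 in positive cells, against 2.98, 12.8 and 0.887 in negative cells at its brighter probe set, and was under the filter.

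**Figure D3:**
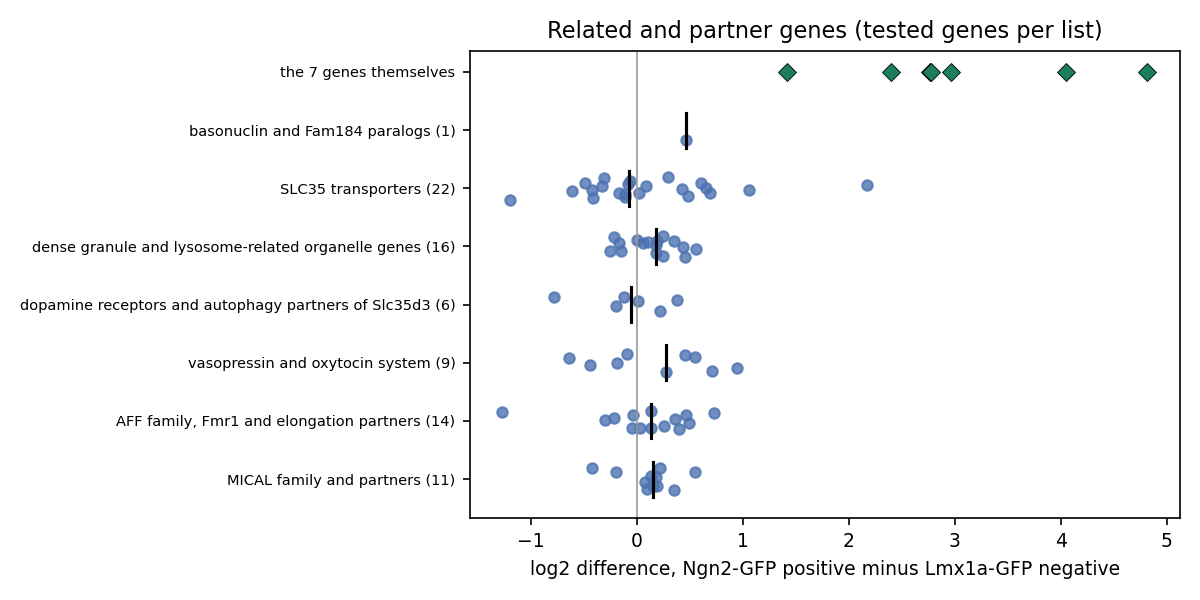
Log2 difference, positive minus negative, of each tested gene in the 7 lists of relatives and partners (points, with the median as a bar and the number tested in brackets), under the 7 genes themselves in the top line, which were chosen for this difference and drawn as fitted. The list genes lie between -1.27 and 2.17, and none passed the test.

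Genes beside the 7 loci were also measured. The 3 nearest protein-coding genes with a tested probe set on each side gave 42 genes, with the locus listed for A930009L07Rik included. Order and distance were taken between the lower coordinates of the genes, whatever their strand. By limma 1 of the 42 was called higher, against 0.423% of all tested genes, and 0 lower, against 0.639%, so that 1 passed in all, against 1.06%, while 9 had an unadjusted p under 0.05, against 10.8%. Their median difference was 0.16, and 28 of the 42 had positive differences, against 52.3% of all tested genes. The 1 gene that passed was Slit2, an axon guidance cue, the third gene after Fam184b and 2452 kb away by lower coordinate. It was higher in positive cells by 1.46 (SE 0.25, limma adjusted p = 0.0111). It had 557, 534 and 516 in positive cells, against 137, 268 and 200 in negative cells. In 5 alternative fits by limma the difference stayed at 1.41 to 1.46 but did not pass. The adjusted p was 0.0573 without positive replicate 2, 0.107 without the filter, 0.138 without the variance trend, 0.231 with the spike-in split as a block and 0.492 on the higher spike-in side alone.

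None of the genes nearest to each locus passed the test. The 7 genes were chosen for a large difference and these were not, so their sizes are not set against each other. The nearest by lower coordinate was Med28, 9 kb from Fam184b. Since Fam184b lies on the minus strand, that distance is from its 3′ end. Med28 differed by 0.15 (SE 0.20), with Ncapg on the other side of Fam184b at 0.15 (SE 0.27). Pex7, 12 kb from Slc35d3, differed by -0.24 (SE 0.27) and Ifngr1 by 0.38 (SE 0.75). Beside Bnc2, Ccdc171 differed by 0.63 (SE 0.36) and Cntln by -0.04 (SE 0.55). Rxylt1 and Ppm1h, on either side of Avpr1a, differed by 0.16 (SE 0.27) and 0.11 (SE 0.24). Fmr1, the nearest tested gene before Aff2, is described above, and Ids on the other side differed by -0.04 (SE 0.24).

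At Micalcl the flanking genes had the largest positive differences of the nearest neighbours, short of the threshold. Dkk3, a secreted protein related to Wnt antagonists, had 73.6, 159 and 58.6 in positive cells, against 45.3, 39.7 and 37.3 in negative cells, a difference of 1.12 (SE 0.38, limma adjusted p = 0.288). Parva, an adaptor of integrin adhesions, differed by 0.71 (SE 0.26, limma adjusted p = 0.343). At the locus listed for A930009L07Rik, Trappc9 differed by 0.19 (SE 0.39) and Col22a1, a collagen gene, by -1.29 (SE 0.53, limma adjusted p = 0.401).

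**Figure D4:**
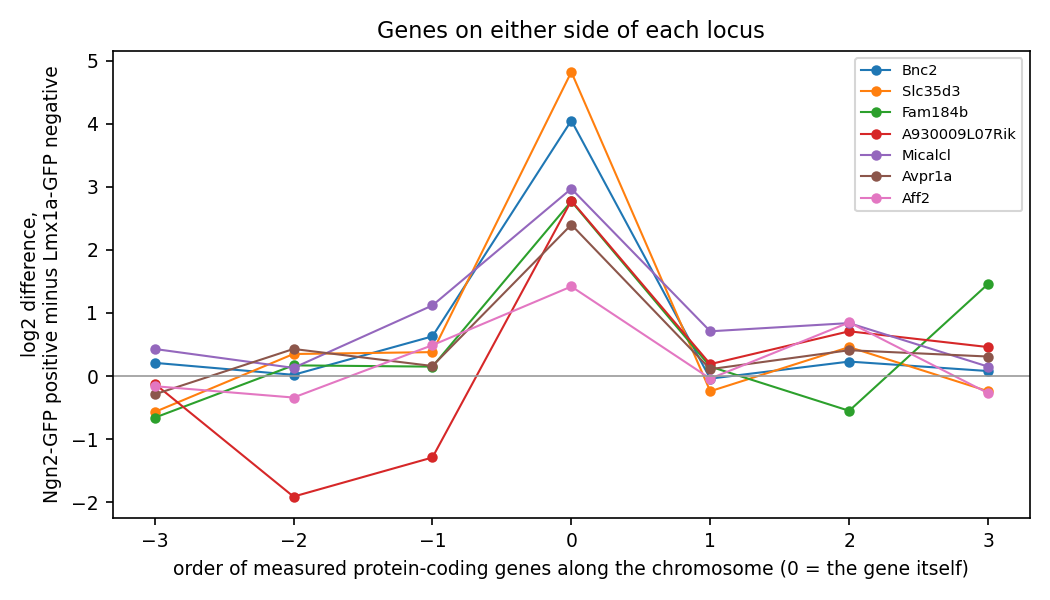
Log2 difference, positive minus negative, of each of the 7 genes (position 0) and of the 3 nearest measured protein-coding genes on each side, in chromosomal order. The 7 genes, drawn as fitted, lie between 1.42 and 4.82, and Slit2, at 1.46 among the genes after Fam184b, is the 1 neighbour that passed the test.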

How the data were processed

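Labelled RNA from each of the 6 sorted samples went onto an array of its own. The authors deposited 1 intensity per probe set, on a linear scale. MAS5, limma and R 2.14.2 are the tools the submitters' processing notes name. Every deposited array has a 2% trimmed mean of 100. Intensity under 1 was set to 1 and log2 was taken. Probe sets entered the test when their signal passed the array's own 40th percentile on 3 or more arrays (27738 did), and each of 12044 genes was represented by its brightest tested probe set (mean of log2 over the 6 arrays). The fit used limma 3.58.1 under R 4.3.3 (eBayes with trend, two-sided, 4 residual degrees of freedom, Benjamini-Hochberg over all tested genes). The fit was also tried on simulated arrays, drawn with the means and variances of the real ones, with 200 of 12044 genes changed in each of 10 runs. For a low group the bound is the other group's mean over the mean of, per array, the higher of signal and 40th percentile, on the log2 scale. Symbols come from the platform annotation, and 34741 of 34945 probe sets with 1 symbol matched the GRCm38.p6 gene table by Entrez ID. Genes named beyond the 7 were mostly direct relatives, the 2 brightest of a list where none passed, nearest or called neighbours, the 3 most alike and a few dopaminergic genes. Slc35e4 and Prkca, which had the highest differences of their lists, were named besides, as were Drd1, Drd2 and Avp. The 7 genes and all lists were chosen with earlier results of these data known. The number of arrays limits precision. Plots came from Python 3.11.15 and matplotlib 3.10.9.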

Additional observations from a re-analysis of the deposited data

How the results depend on the processing

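The differences of all 7 genes stayed positive under every alternative run. Nothing is read from that sign. The genes were chosen on this contrast, and each positive array stood above every negative one, so most runs could not change it. With log2 of the value plus 32 the differences shrank, to 2.70 for Bnc2, 1.43 for Fam184b, 1.09 for Aff2, 1.07 for Avpr1a, 1.05 for Micalcl and 0.92 (a bound) for Slc35d3, as that scale compresses low signals. With the mean of a gene's tested probe sets they were 1.66 for Fam184b and 0.95 for Aff2. Leaving out each array in turn gave 3.63 to 4.65 for Bnc2, 2.36 to 3.22 for Fam184b, 2.51 to 3.25 for A930009L07Rik, 1.97 to 3.06 for Micalcl, 1.99 to 2.54 for Avpr1a, 1.30 to 1.53 for Aff2 and a bound of 1.86 to 2.18 for Slc35d3. The lowest values of Micalcl and Avpr1a, 1.97 and 1.99, are also bounds and do not show a smaller difference. Calls over all genes numbered 19 with no filter, 42 without the trend, 34 with the spike-in split as a block and 38 on its higher side alone, both resting on 1 positive array assumed to vary like the others, against 128. With 1 array left out they numbered 58 to 419, the highest number being that without positive replicate 3. The relatives and partners had 0 calls in every fit, also 0 to 0 with 1 array left out. The neighbours had 0 calls with no filter, without the trend, with the spike-in block, on its higher side and without positive replicate 2, and 0 to 2 with 1 array left out. The second neighbour, Qdpr, beside Fam184b, passed without positive replicate 3 (-0.92, adjusted p = 0.0387). With the replicate number as a block 127 genes passed, and the differences of the 7 genes and the other counts were as before. Same-numbered arrays correlated at -0.0824 to 0.157 in their deviations from the group means, and arrays of different number at -0.164 to 0.0935. With 3 arrays per group these values cannot settle whether the numbers pair the arrays. Motif matches of the 7 windows all lay within 200 bases before the start. Signals near the 40th percentile limit the sizes given for Bnc2, Slc35d3, Fam184b, Micalcl and Avpr1a.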
